A study of Arabidopsis thaliana with 8 samples.

Results

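The double mutant ddm1-2 rdr6-15 of Arabidopsis thaliana was compared with the wild type Col-0 on Affymetrix ATH1 arrays, which measure transcripts with sets of short probes (probe sets). The comparison rests on 4 of the 8 arrays of the series, 2 for each of these genotypes, and covers all 22746 probe sets that are not controls, of 22810 on the array. The other 4 arrays are 2 of ddm1-2 and 2 of rdr6-15. They serve here to estimate the spread between replicates and to place the double mutant beside the single mutants. All 4 genotypes were sampled as inflorescences at flower stages 9 to 12 from plants grown in long days, and the labels name no further treatment. The double mutant carries the ddm1-2 and the rdr6-15 alleles together, and Col-0 carries neither. Arrays of one genotype are labelled as biological replicates, each made from 6 ug of total RNA. Per the labels the RNA came from tissue pooled at n = 3. Each array is therefore an average over pooled tissue, and the spread between 2 arrays is not the spread between plants.

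DDM1 is a chromatin remodelling protein that keeps DNA methylation in place over transposons and other repeats, so that these stay silent. RDR6 copies RNA into double strands, as an RNA-dependent RNA polymerase, and from these secondary small interfering RNAs are cut, among them the trans-acting siRNAs. The series as a whole concerns small RNAs that arise from transposons once their epigenetic silencing is lost. Many transposon remnants are annotated as pseudogenes in the reference annotation, a class that also holds ordinary pseudogenes.

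Values are log2 signals, so that a difference of 1 is a 2-fold change. The median signal per array lay between 3.73 and 3.81. To judge which signals are empty, 27 control probe sets that target Bacillus RNA, absent from plants, were used. The highest of their means was 3.56 and the others lay between 2.27 and 2.76. Means of up to 3.56 are termed control level. A difference that starts or ends at control level is a lower limit. Of the arrays, rdr6-15 replicate 1 stood apart, with a Pearson correlation across probe sets of 0.852 to 0.879 with the others, against at least 0.944 among the other 7. It is not one of the 4 arrays compared, but it widens the estimate of the spread, so counts are given with all 8 arrays and without both rdr6-15 arrays. No probe set was named for DDM1 or RDR6, so the levels of the mutated genes were not analysed here and do not check the labels. Of 22 floral organ and meristem identity genes listed to check the tissue, 3 could be matched (SPL, UFO and CLV3), and none had a mean above control level in any genotype, so that the labelled tissue could not be checked against them.

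Of the 48 probe sets that were higher in the double mutant with all 8 arrays, 36 were annotated as pseudogenes. Without both rdr6-15 arrays 73 of 234 were. A single locus was listed for 43 of the 48, and pseudogenes make up 989 of the 13436 probe sets with a single locus. Of the 36, 22 match several related sequences, so their signal cannot be assigned to one locus. All 12 named genes that were lower were protein coding, as are 12443 of the 13436 probe sets with a single locus. With limma's moderated test over all 8 arrays (two-sided, Benjamini-Hochberg adjusted p under 0.05), 48 probe sets were higher (0.211% of those tested) and 23 were lower (0.101%), 71 in all (0.312%). Without both rdr6-15 arrays 234 were higher (1.03%) and 650 were lower (2.86%), 884 in all (3.89%). All 48 and all 23 were among them. With the rdr6-15 arrays kept, leaving out Col-0 replicate 1 or 2 gave 23 or 22 higher and 0 lower, and leaving out any single array of ddm1-2 or the double mutant gave 25 to 31 higher and 1 or 2 lower. The median difference over all probe sets was 0.02. An unadjusted p under 0.05 was reached by 1772 probe sets (7.79%). The direction of the balance therefore depended on the arrays used for the spread, as the plot of calls by setting shows. By size alone, 182 probe sets differed by more than 1 log2 unit upward (0.8%) and 549 by more than 1 downward (2.41%).

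**Figure D1:**
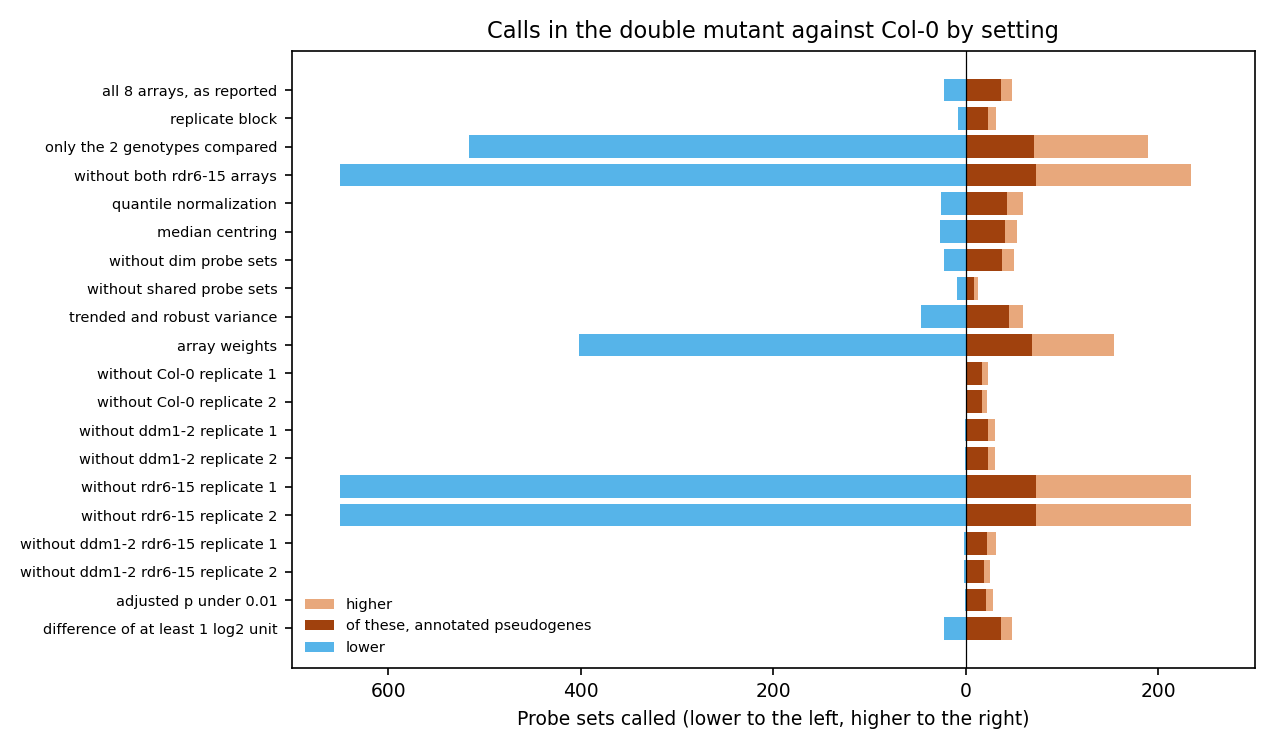
Number of probe sets called in the double mutant against Col-0 under each setting, with calls higher to the right (the dark part being annotated pseudogenes) and calls lower to the left. With all 8 arrays 48 were higher and 23 lower, and without both rdr6-15 arrays 234 were higher and 650 lower.

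Among the 989 probe sets of annotated pseudogenes, 36 were higher in the double mutant (3.64%) and 0 were lower in limma's test, and by size alone 85 differed by more than 1 log2 unit upward and 0 by that much downward. Their median difference was 0.05, close to the 0.02 of all probe sets, so the middle of the class lay where that of all probe sets did. Without both rdr6-15 arrays 73 were higher (7.38%) and 0 lower, and without either Col-0 array 17 were higher. Differences above 4 log2 units were found for 19 pseudogene probe sets, against 5 of 12443 probe sets of protein-coding genes. The class was mostly at control level in Col-0, where 54 of its probe sets had a mean above control level. The count was 85 in rdr6-15, 156 in the double mutant and 181 in ddm1-2. Over all probe sets it was 12173 in Col-0, 12509 in rdr6-15, 12269 in the double mutant and 12200 in ddm1-2. The rdr6-15 means include replicate 1, which stands apart, so the 85 cannot be read as a rise over Col-0. Both double mutant arrays were above control level and both Col-0 arrays at or below it for 64 pseudogene probe sets (6.47%), against 269 of all probe sets (1.18%). The reverse was seen for 0 pseudogene probe sets and for 256 of all (1.13%). A fall can be read only from above control level in Col-0, where 54 pseudogene probe sets and 12173 of all had their mean. The counts of 0 lower say little about the rest of the class.

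The strongest member of the class was AT2G13160. Its signal was 2.77 and 2.82 on the Col-0 arrays and 11.98 and 11.87 on the double mutant arrays, with 11.64 and 12.02 in ddm1-2 and 3.34 and 2.66 in rdr6-15. Both genotypes with ddm1-2 were thus near the upper end of the scale and both genotypes with an intact DDM1 were at control level. The difference between the double mutant and Col-0 was at least 9.13 log2 units (SE 0.26, limma adjusted p = 2.11e-05). From control level too, AT2G10640 rose by at least 8.73, AT2G12300 by at least 8.63 and AT2G12240 by at least 8.20. AT2G04770, AT2G13870 and AT1G33130 rose by at least 7.79, 7.75 and 7.67, and AT2G12980, AT3G31955 and AT3G30670 by at least 7.11, 6.61 and 5.76.

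AT3G30396 was above control level already in Col-0, at 4.50 and 4.08, and stood at 11.65 and 11.75 in the double mutant, a difference of 7.41 (SE 0.20, limma adjusted p = 1.87e-05). AT2G12980 had the least even pair among these genes, at 8.57 and 9.96 in the double mutant against 2.15 and 2.14 in Col-0. The naming rule required that the double mutant and Col-0 arrays not overlap. For the 12 pseudogenes with the largest differences none came near, as the plot of genes higher in the double mutant shows.

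Of these 12, all but AT1G34530 were read by probe sets that match several related sequences, so their signal cannot be assigned to one locus and they are not 12 independent genes. AT1G34530 has a probe set of its own and read 2.23 and 2.22 in Col-0 against 7.89 and 8.82 in the double mutant, a difference of at least 6.13 (SE 0.31, limma adjusted p = 0.00038). Across the class, 14 of 798 own probe sets and 22 of 191 shared ones were higher, or 35 and 38 without both rdr6-15 arrays. The median difference was 0.04 among own and 0.17 among shared probe sets. AT3G47320 and AT4G04590, further pseudogenes with probe sets of their own, were chosen after their values were seen. AT3G47320 went from 2.60 and 2.27 to 7.89 and 8.18, at least 5.60 higher (limma adjusted p = 4.36e-05). AT4G04590 went from 2.94 and 2.68 to 7.77 and 7.96, at least 5.06 higher (limma adjusted p = 6.86e-05). The rise was therefore also measured by probe sets that are not shared.

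**Figure D2:**
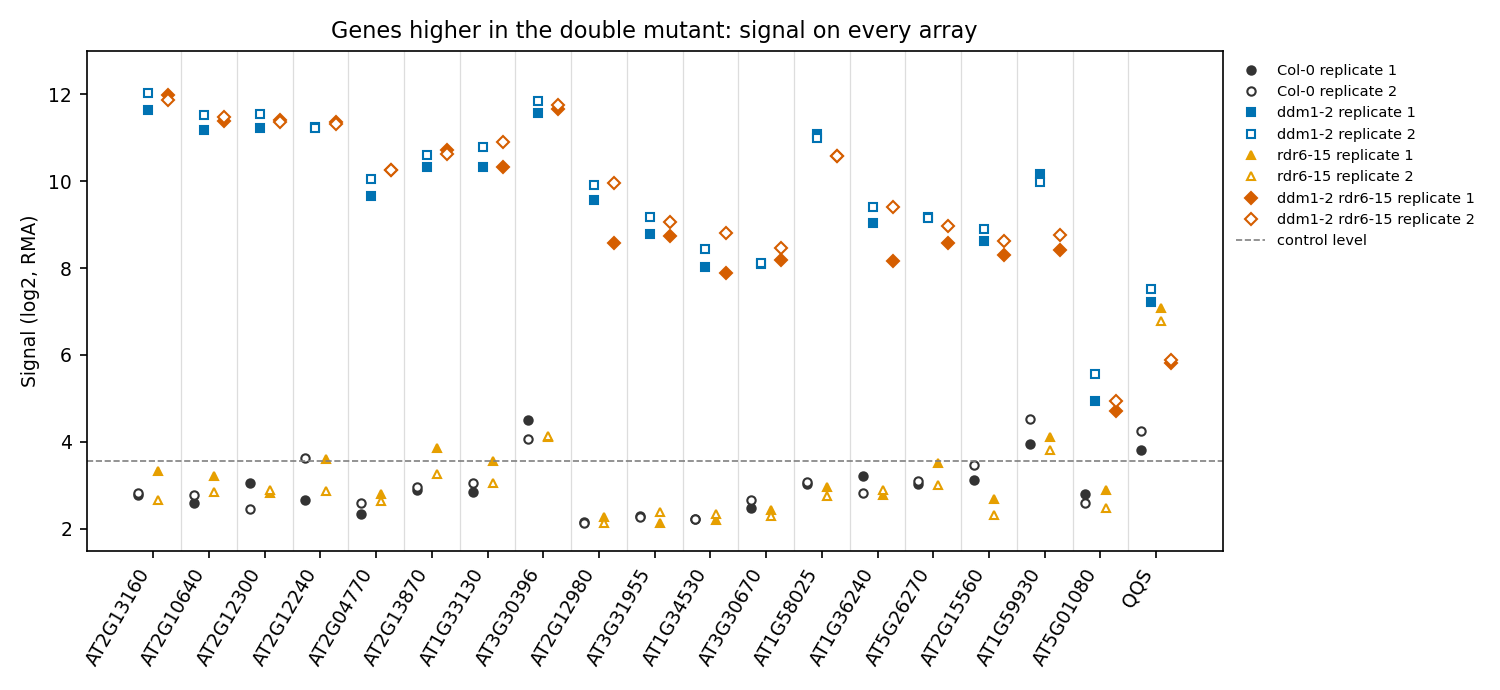
RMA log2 signal on all 8 arrays (y axis) for the 12 pseudogenes and 7 protein-coding genes named as higher in the double mutant (x axis), with 1 symbol per array and the control level of 3.56 dashed. The ddm1-2 and the double mutant arrays lie above Col-0 and rdr6-15 for all but QQS, whose rdr6-15 arrays are also above Col-0. Both double mutant arrays lie below both ddm1-2 arrays for AT1G58025, AT5G26270, AT1G59930 and QQS.

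Pseudogenes called higher lay on all 5 chromosomes. Chromosome 2 held 16 of the 36 among its 298 pseudogene probe sets, chromosomes 1 and 3 held 7 each among 193 and 207, chromosome 4 held 5 among 174 and chromosome 5 held 1 among 117. Without both rdr6-15 arrays the counts were 21, 28, 10, 11 and 3 on chromosomes 1 to 5, so that chromosome 1 had a larger share of its probe sets called (10.9%) than chromosome 2 (9.40%). In the gene order of the reference, 12 of the 43 called-higher loci that could be named had another such locus within 10 genes, forming 7 pairs. The share among all probed loci or all probed pseudogenes was not worked out, so this count does not show clustering. AT2G12240 and AT2G12250 were direct neighbours, as were AT3G47320 and AT3G47330. Probe sets of the shared type may read both members of such a pair, and this was not tested.

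Of 4 transposons listed by name, 1 was called higher in the double mutant, AT2G23480, through a shared probe set. It read 2.91 and 2.81 in Col-0 and 4.91 and 5.27 in the double mutant, at least 2.23 higher (SE 0.18, limma adjusted p = 0.00546). It stood at 4.70 and 4.59 in ddm1-2 and at 3.03 and 2.95 in rdr6-15, so its level was raised in the genotypes with ddm1-2. The other 3 did not pass with all 8 arrays or without both rdr6-15 arrays, and the median difference of the 4 was 0.39.

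Among 12443 probe sets of protein-coding genes, 7 were higher in the double mutant, and 5 of these came from control level by more than 2 log2 units. AT1G58025 was the clearest, at 3.04 and 3.08 in Col-0 and 10.59 and 10.58 in the double mutant, at least 7.53 higher (SE 0.16, limma adjusted p = 1.46e-05). Its replicates differed by less than 0.1 in each of these genotypes. AT1G36240, AT5G26270 and AT2G15560 rose from control level by at least 5.77, 5.71 and 5.16. AT5G01080 rose by at least 2.13 (SE 0.26, limma adjusted p = 0.0358), and AT1G59930, read by a shared probe set, by 4.35 (SE 0.25, limma adjusted p = 0.000739) from 3.96 and 4.52. The ddm1-2 mean was the highest of the 4 genotypes for all 6.

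QQS (QUA-QUINE STARCH), an orphan gene known to influence starch content and to vary in expression with the methylation of its locus, was the seventh coding gene that rose. It read 3.81 and 4.25 in Col-0 and 5.83 and 5.87 in the double mutant, a difference of 1.82 (SE 0.22, limma adjusted p = 0.0344). Unlike the genes above, it was high in both single mutants, at 7.22 and 7.52 in ddm1-2 and at 7.08 and 6.79 in rdr6-15. Both double mutant arrays thus lay above both Col-0 arrays and below all 4 arrays of the single mutants. Tested directly, the double mutant was lower than ddm1-2 by 1.52 (limma adjusted p = 0.201) and lower than rdr6-15 by 1.08 (limma adjusted p = 0.457), and neither difference passed. The interaction did pass, the double mutant lying 4.43 log2 units below the sum of the 2 single differences (limma adjusted p = 0.0277). QQS was 1 of 2 probe sets called for the interaction (0.00879%), against 1430 at an unadjusted p under 0.05 (6.29%). With the rdr6-15 arrays kept, leaving out any single array of Col-0, ddm1-2 or the double mutant ended both the call against Col-0 and that of the interaction, with differences of 1.60 to 2.04 and -4.65 to -4.21.

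Without both rdr6-15 arrays the coding genes called higher were 90 of 12443 (0.723%), and they included several with an annotated name, chosen here after their values were seen. NRPE7, a subunit of RNA polymerase V, which acts in RNA-directed DNA methylation, read 2.74 and 2.90 in Col-0 and 3.58 and 3.55 in the double mutant, a step of 0.74 that ends at about control level (limma adjusted p = 0.0337 without both rdr6-15 arrays, 0.234 with all 8). GSTU20, a glutathione S-transferase, went from 4.85 and 5.17 to 6.60 and 6.59, higher by 1.59 (limma adjusted p = 0.00875 and 0.632). THI2.1, a thionin of the jasmonate list, went from 9.07 and 9.12 to 10.03 and 10.48, higher by 1.16 (limma adjusted p = 0.0128 and 1). PORB, a protochlorophyllide oxidoreductase, went from 5.64 and 5.85 to 7.12 and 6.68, higher by 1.15 (limma adjusted p = 0.0118 and 0.721). These calls are smaller than those of the silent genes and rest on the fit that leaves the rdr6-15 arrays out.

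**Figure D3:**
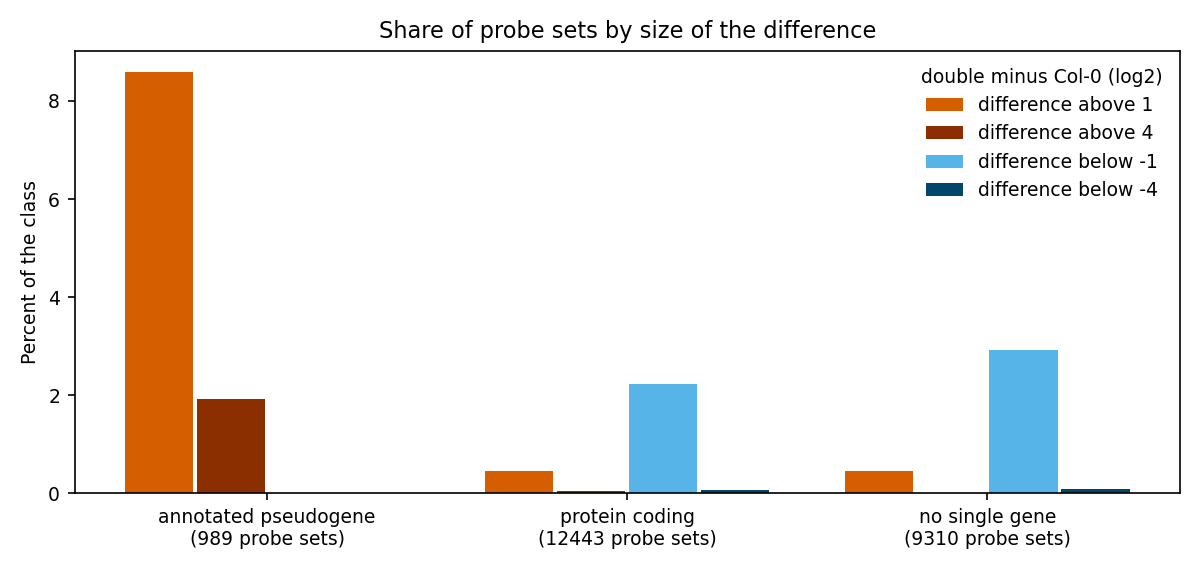
Share of the probe sets of each annotation class (y axis, percent) whose mean in the double mutant differed from Col-0 by more than 1 or more than 4 log2 units. Of pseudogene probe sets 85 differed by more than 1 upward and 0 downward, and of coding genes 55 upward and 278 downward. Most pseudogene probe sets were at control level in Col-0, where a fall cannot be read.

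By their medians, the probe sets that rose in the double mutant stood about as high in ddm1-2, but single ones did not. Over the 48, the median of the means was 2.80 in Col-0 and 2.85 in rdr6-15, and 7.50 in ddm1-2 beside 7.49 in the double mutant. The median difference of the double mutant from ddm1-2 was -0.16, with a range from -2.16 to 1.59, and 34 of the 48 lay within 0.5 of ddm1-2. The low end was AT4G05640, a pseudogene named after its values were seen. It read 7.59 and 7.71 in the double mutant against 9.68 and 9.94 in ddm1-2 (limma adjusted p = 0.0909). In limma's direct test 1 of the 48 differed from ddm1-2 at an adjusted p under 0.05, against 13 of all probe sets (0.0572%). At an unadjusted p under 0.05 there were 13 of the 48, 2 higher and 11 lower in the double mutant, against 616 of all (2.71%). Against rdr6-15, 36 of the 48 differed at an adjusted p under 0.05, where 37 of all probe sets did (0.163%). The double mutant shares its arrays among these comparisons, so they are not independent of each other.

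For single genes the interval of the difference from ddm1-2 says how far apart the genotypes could be. For AT2G13160 it was 0.09 with a 95% confidence interval from -0.52 to 0.71. For AT1G58025 the double mutant was lower by 0.45, with an interval from -0.82 to -0.08, and for AT1G59930 by 1.47, from -2.06 to -0.88, with 8.43 and 8.77 in the double mutant against 10.17 and 9.97 in ddm1-2. Neither passed over all probe sets (limma adjusted p = 1 and 0.377). These intervals are not adjusted for the number of probe sets, and a p above the threshold does not show that the genotypes are alike.

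Of the 23 probe sets that were lower in the double mutant, 12 had a named gene and 11 had no single gene. All 12 were protein coding, which is near the share of coding genes among probe sets with a single locus (12443 of 13436). AT5G39520 read 7.93 and 8.10 in Col-0 and 3.74 and 4.97 in the double mutant, a fall of 3.66 (SE 0.46, limma adjusted p = 0.0407). AT1G05340 went from 7.62 and 7.17 to 4.62 and 5.16, lower by 2.50 (SE 0.26, limma adjusted p = 0.0223). Both were as low in the single mutants, between 3.71 and 4.98, so that Col-0 stood alone as the high genotype. With the rdr6-15 arrays kept, 0 of the 12 passed without either Col-0 array, without either ddm1-2 array or without double mutant replicate 2, and 1 passed without double mutant replicate 1.

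PPDK, pyruvate orthophosphate dikinase, an enzyme of pyruvate metabolism that also acts in nitrogen remobilisation from ageing leaves, read 8.68 and 8.70 in Col-0 and 6.75 and 6.95 in the double mutant. The difference was -1.84 (SE 0.18, limma adjusted p = 0.0137). The single mutants lay between, at 7.59 and 7.59 in ddm1-2 and 7.11 and 7.44 in rdr6-15. Against ddm1-2 the double mutant was lower by 0.75 (95% confidence interval from -1.16 to -0.33), which did not pass over all probe sets (limma adjusted p = 1).

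AGL66, a MADS-box transcription factor of pollen, read 4.08 and 4.45 in Col-0 and fell to control level in the double mutant, at 2.95 and 2.65, a fall of at least 1.46 (SE 0.19, limma adjusted p = 0.0493). AT3G61930 and AT1G74010 fell by at least 2.17 and 1.98, and AT1G18990, AT3G26860 and AT3G49210 by at least 1.74, 1.66 and 1.65. AT5G51030 and AT2G46300 fell by at least 1.54 and 1.28, while AT1G79520 stayed above control level and fell by 1.45. The rule by which these 12 genes were named required that no double mutant array overlap a Col-0 array. The single mutant arrays lay below both Col-0 arrays too, as the plot of genes lower in the double mutant shows.

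**Figure D4:**
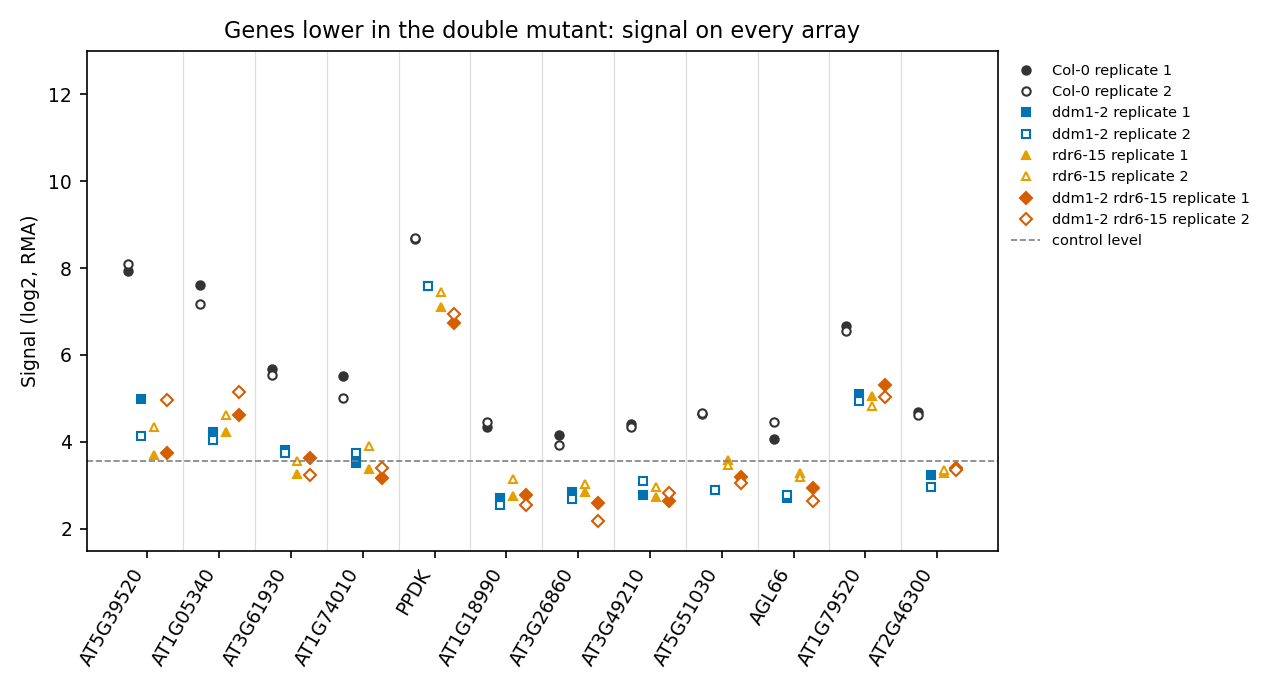
RMA log2 signal on all 8 arrays (y axis) for the 12 genes named as lower in the double mutant (x axis), with 1 symbol per array and the control level of 3.56 dashed. For each gene the Col-0 arrays lie above the 6 arrays of the mutants. Both double mutant arrays are the lowest for PPDK and, at control level, for AT3G26860.

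Levels in the single mutants were closer to the double mutant than to Col-0 for these 23 by their medians. The median of their means was 5.60 in Col-0 and 3.37 in the double mutant, beside 3.63 for ddm1-2 and 3.64 for rdr6-15, and 18 of the 23 lay within 0.5 of ddm1-2. In limma's direct tests 0 of the 23 differed from ddm1-2 and 0 from rdr6-15 at an adjusted p under 0.05, with 4 and 7 at an unadjusted p under 0.05, against 616 and 1102 of all probe sets (2.71% and 4.84%). All 23 were chosen for their difference from Col-0, and the single mutants were compared with the same Col-0 arrays.

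Genes of mature pollen and the pollen tube had lower signals in the double mutant than in Col-0. Of 64 loci listed, 20 had a probe set, and for all 20 both Col-0 arrays were above both double mutant arrays, which held for 4793 of all probe sets (21.1%). The 20 were read on the same arrays and largely moved together across them, so they are not 20 independent observations. Their median difference was -2.64, with a range from -4.21 to -0.38, beside 0.02 for all probe sets. With all 8 arrays 1 of the 20 passed, AGL66 (0.101% of all probe sets were called lower). Without both rdr6-15 arrays 12 passed, all lower (2.86% of all). An unadjusted p under 0.05 over all 8 arrays was reached by 15 of the 20 (7.79% of all). Leaving out a Col-0 or double mutant array as well moved the 12 to between 0 and 15, the 0 being without Col-0 replicate 2. Signal was above control level for 18 of the 20 in Col-0 and for 8 in the double mutant, while among all probe sets the shares were 53.5% and 53.9%. In whole inflorescences fewer pollen cells and less RNA per pollen cell cannot be told apart.

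The 2 double mutant arrays differed from each other in these genes. AT3G07820 read 10.18 and 10.57 in Col-0 but 8.33 and 4.0 in the double mutant. AT3G01270 went from 10.36 and 10.83 to 8.45 and 4.78, and AT5G48140 from 8.18 and 8.21 to 5.69 and 2.92. None of these passed in limma's test with all 8 arrays (adjusted p = 0.785, 0.698 and 0.548), and without both rdr6-15 arrays AT5G48140 did (adjusted p = 0.0207).

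In the double mutant replicate 2 was below replicate 1 for 19 of the 20 genes, against 1 of 20 in Col-0. The median over the 20 was 6.29 and 6.78 on the Col-0 arrays and 4.14 and 2.90 on those of the double mutant. On the ddm1-2 arrays it was 4.29 and 3.42, and on the rdr6-15 arrays 2.95 and 5.52. These medians were lower on all 6 mutant arrays than on those of Col-0, and the low rdr6-15 value was that of replicate 1, which stands apart. Over all probe sets, replicate 2 of the double mutant was more than 2 log2 units below replicate 1 at 73 and above it at 7. The counts were 1 and 0 in Col-0, 3 and 1 in ddm1-2, and 387 and 593 in rdr6-15, whose replicate 1 stands apart. Of the 73, 5 were on the pollen list and 49 were called lower than Col-0 without both rdr6-15 arrays, against 2.86% of all probe sets. A low replicate 2 itself lowers the double mutant mean, so the count of 49 follows in part from how the 73 were chosen. Stage or sampling differences between the pools were not recorded in the labels, and their part in these values was not tested.

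Members with an annotated name differed by -0.38 to -3.07. AT59, a pectate lyase-like gene of pollen, read 6.58 and 6.93 in Col-0 and 4.31 and 3.05 in the double mutant, at -3.07 (limma adjusted p = 0.317 with all 8 arrays and 0.00486 without both rdr6-15 arrays). ACT12, an actin of pollen, and ANX2, a receptor kinase that keeps the pollen tube intact, were at -1.43 and -1.68 and passed only without both rdr6-15 arrays (limma adjusted p = 0.01 and 0.0243). MGH3, a histone H3 of the male gametes, and ACT11, a reproductive actin, differed by -0.38 and -0.41 and passed in neither fit.

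**Figure D5:**
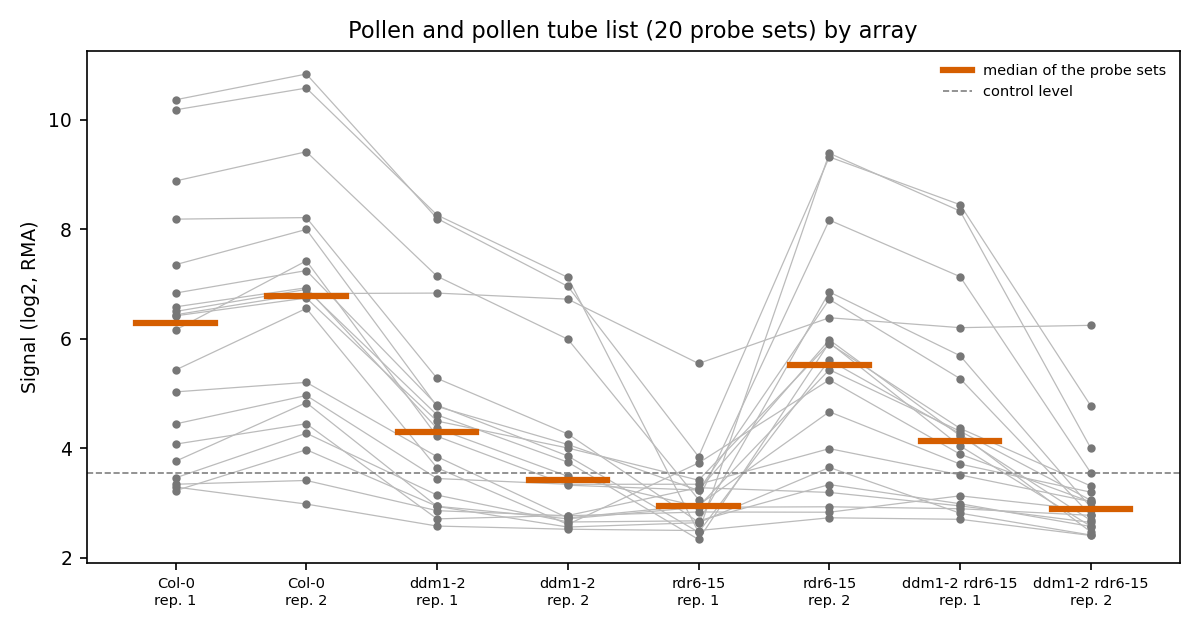
RMA log2 signal (y axis) of the 20 probe sets of the pollen and pollen tube list on each of the 8 arrays (x axis), with lines joining the values of one probe set, the median per array as a bar and the control level of 3.56 dashed. The medians were 6.29 and 6.78 in Col-0 and 4.14 and 2.90 in the double mutant.

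Some of the 650 probe sets called lower without both rdr6-15 arrays have an annotated gene name outside the lists, and 6 are given here as single values, chosen after their values were seen. RALFL26, a small signalling peptide of the RALF family, went from 7.96 and 7.82 to 5.69 and 4.17, lower by 2.96 (limma adjusted p = 0.00553, and 0.392 with all 8 arrays). PLIM2b, an actin-bundling LIM protein, went from 6.97 and 7.29 to 5.47 and 5.04, lower by 1.88 (limma adjusted p = 0.00259 and 0.573). TUA1, a pollen-rich alpha-tubulin, went from 7.95 and 8.22 to 6.78 and 6.31, lower by 1.54 (limma adjusted p = 0.00447 and 0.284). The sugar transporters SWEET13 and SWEET14 were lower by 2.16 and 1.53 (limma adjusted p = 0.00919 and 0.015, and 0.608 and 0.495 with all 8 arrays), and the auxin-conjugating enzyme GH3.3 by 1.87 (limma adjusted p = 0.00195 and 0.495).

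The tapetum feeds developing pollen and supplies its wall. Of 31 tapetum, pollen wall and pollen coat genes, 7 had a probe set and 0 passed in limma's test, with 0 at an unadjusted p under 0.05. Their median difference was 0.11 and they ranged from -0.37 to 0.87. The difference between the 2 lists was not tested.

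Genes that act in DNA methylation or RNA silencing did not pass, but few could be read. DME, a DNA demethylase, was the only member matched of 30 genes of DNA methylation and heterochromatin, and its 3 probe sets differed by 0.03 to 0.14. AGO7, an Argonaute protein needed for one class of trans-acting siRNAs, and SE, a protein of microRNA processing, were the 2 matched of 24 RNA silencing genes, at differences of 0.40 to 0.50. Of 25 trans-acting siRNA targets, 7 had a probe set, and 6 of these were at control level in all genotypes. The seventh, AT1G62860, had a mean of 3.62 in Col-0 and 3.84 in the double mutant. In these 3 lists 0 probe sets reached an unadjusted p under 0.05 in limma's test.

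Few stress and ageing genes could be read. Of 4 matched senescence genes of 20, PPDK was lower with all 8 arrays, and WRKY6, a transcription factor of senescence and defence, was lower by 0.98 without both rdr6-15 arrays only (limma adjusted p = 0.0441, and 0.261 with all 8). The median of the 4 was -0.58, and over all probe sets 0.101% were lower with all 8 arrays and 2.86% without both rdr6-15 arrays. Of the jasmonate list 2 of 23 genes were matched, and THI2.1 above was called higher without both rdr6-15 arrays, as were 1.03% of all probe sets. Salicylic acid and heat lists had 2 matched genes each, all at control level, and none of 17 DNA damage genes was matched.

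Photosynthesis genes gave no call with all 8 arrays. The 6 matched of 35 nuclear photosynthesis genes had a median difference of -0.02, with 0 at an unadjusted p under 0.05. The 69 plastid-encoded probe sets had a median of 0.12 and ranged from -0.84 to 0.78. None of them passed in limma's test with all 8 arrays, with 2 at an unadjusted p under 0.05, and 1 was called higher without both rdr6-15 arrays.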

How the data were processed

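Per the submitters' processing notes, the deposited log2 values per probe set were made by the authors with RMA, which corrects background, normalizes by quantiles and summarises probes. Its version is not given in the sources used here. All 8 columns were mapped to samples and used as deposited.

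Control probe sets (64 of 22810) were left out. Of the 22746 tested, the platform annotation listed 14016. A single locus was found for 13436 through the TAIR10.1 reference table (12443 coding, 989 pseudogenes, 4 other noncoding), and 9310 had no single gene. The probe sets of the types _s_at and _x_at, 1061 of them, match several related sequences and are called shared. Coordinates and sequences were not used here.

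Using limma 3.58.1 (lmFit, eBayes; R 4.3.3), genotype means were estimated from the 8 arrays together, with 4 residual and 2.82 prior degrees of freedom. The two-sided p-values received a Benjamini-Hochberg adjustment over every probe set tested, and 0.05 was the threshold. The fit was tested on simulated data with changes of 1, 2 or 4 log2 units put into the double mutant. It recovered 9 of 67, 45 of 67 and 62 of 66 of these, with 8 false calls, so most changes of 1 log2 unit were missed. The number of arrays limits the precision.

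Named were, among called probe sets with a single locus and no overlap between the arrays compared, the 12 pseudogenes and 12 other genes that rose most (7 existed) and the 14 that fell most (12 existed), called members of 14 gene lists, and list members with large differences as values. Genes named outside this rule are marked. Lists are described by counts and medians, with no set test. The members, lists and tests were chosen with earlier results of these data known.

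Alternatives were a replicate block, only the 2 genotypes compared, leaving out both rdr6-15 arrays, dim or shared probe sets or each array in turn, quantile normalization, median centring, a trended and robust variance, array weights, an adjusted p under 0.01 and a difference of at least 1. Leaving out single arrays besides both rdr6-15 arrays was added after seeing the data. The labels do not say that a replicate number marks a shared origin. The correlation of same-numbered arrays' deviations from their genotype means was -0.0015 for Col-0 and the double mutant and 0.42 for ddm1-2 and the double mutant, and ran from -0.06 to 0.155 for the other pairs of genotypes, so the numbers were not taken to pair the arrays.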

Additional observations from a re-analysis of the deposited data

Results flagged for a closer look

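QQS was singled out by a test of the difference between 2 effects. By the means, the change that goes with ddm1-2 was opposite in sign in the 2 backgrounds. The ddm1-2 mean lay above Col-0 by 3.34 log2 units. The double mutant lay below rdr6-15 by 1.08, a change that did not pass on its own (limma adjusted p = 0.457). The difference between these changes was -4.43 (limma adjusted p = 0.0277, n = 2 arrays per genotype). Leaving out each array in turn, it ran from -4.65 to -4.21, and it passed only where the array left out was of rdr6-15. The rise of QQS in rdr6-15, to 7.08 and 6.79, rests on arrays of which replicate 1 stands apart, and replicate 2 alone shows it too.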

How the results depend on the processing

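Given in the order higher, lower, pseudogenes higher, coding genes higher, coding genes lower and pollen list lower, the counts were 48, 23, 36, 7, 12 and 1 with all 8 arrays. They became 189, 516, 71, 64, 266 and 12 with only the 2 genotypes compared, 234, 650, 73, 90, 322 and 12 without both rdr6-15 arrays (and 1 plastid-encoded probe set), and 154, 402, 69, 47, 210 and 9 with array weights. Without shared probe sets they were 13, 9, 8, 4, 4 and 0, and at an adjusted p under 0.01 they were 28, 1, 21, 5, 0 and 0. A trended and robust variance gave 47 lower and 31 coding genes lower, and without dim probe sets 0 of the pollen list passed. Of the probe sets that rose, those called against ddm1-2 numbered 1 with all 8 arrays, 4 without both rdr6-15 arrays or with array weights, and 0 with the block, without dim or shared probe sets and at 0.01. Those called against rdr6-15 numbered 36, and 11 without shared probe sets.

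The replicate numbers were not taken to pair the arrays, since the deviations of same-numbered arrays correlated at over 0.1 in some pairs of genotypes (0.42 for ddm1-2 and the double mutant) and not in others (-0.0015 for Col-0 and the double mutant). The fit with the replicate block gave 31 higher, 8 lower, 23 pseudogenes higher, 5 coding genes higher, 5 coding genes lower and 0 of the pollen list. The QQS interaction of -4.43 kept its value and did not pass with the block or at 0.01.

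Leaving out each array in turn gave 22 to 234 higher, 0 to 650 lower, 17 to 73 pseudogenes higher, 4 to 90 coding genes higher, 0 to 322 coding genes lower, 0 to 12 of the pollen list and 0 to 1 plastid-encoded probe set. Calls against ddm1-2 ran from 0 to 4, and those against rdr6-15 from 25 to 48 among the probe sets that rose and from 0 to 2 among those that fell. The QQS interaction ran from -4.65 to -4.21. The upper ends of the counts higher and lower come from leaving out either rdr6-15 array, since the other one then adds nothing to the estimate of the spread. Without either Col-0 array 0 were lower, without either ddm1-2 array 1 and without either double mutant array 2. Without both rdr6-15 arrays, also leaving out a Col-0 or double mutant array gave 82 to 219 higher, 130 to 535 lower, 47 to 83 pseudogenes higher, 15 to 83 coding genes higher, 62 to 283 coding genes lower, 0 to 15 of the pollen list and 2 to 3 calls against ddm1-2. The pollen count was 0 without Col-0 replicate 2.

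Pseudogenes called lower stayed at 0 in every setting run, but most of the class was at control level in Col-0, where a fall cannot be read. The 12 named pseudogenes passed in all 265 of their settings. The 7 coding genes that rose passed in 141 of 160, the 12 genes that fell in 172 of 276, and none changed direction. In the setting without shared probe sets only 1 of the 12 pseudogenes, AT1G34530, was tested, as the others are read by shared probe sets. These totals count leaving out both rdr6-15 arrays, or either one, as separate settings, though the numbers of calls against Col-0 were then the same. The causes were not tested. Limits are the 2 arrays per genotype, the rdr6-15 replicate that stands apart, and the signal of genes at control level, whose changes cannot be read.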

Other observations

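Given here are 2 probe sets without a listed single gene, chosen after their values were seen. In them the double mutant was the highest or the lowest of the 4 genotypes. They are not the only such probe sets. For example, 250128_at was also lowest in the double mutant, at 4.67 and 4.47 against 4.74 and 4.94 in ddm1-2. The probe set 253689_at was higher in the double mutant than in every other genotype. It read 4.17 and 4.28 there, against 2.95 and 2.91 in Col-0, 2.59 and 2.68 in ddm1-2 and 3.10 and 3.04 in rdr6-15, all at control level. It passed against Col-0 (1.3 higher, limma adjusted p = 0.029) and against ddm1-2 (1.59 higher, limma adjusted p = 0.0457), and not against rdr6-15 (1.16 higher, limma adjusted p = 0.0646). The call against ddm1-2 was lost with the replicate block (limma adjusted p = 0.103), without shared probe sets (0.139), without dim ones (0.0502) and, with the rdr6-15 arrays kept, without any single array of Col-0, ddm1-2 or the double mutant (0.203 to 0.644), and it held without both rdr6-15 arrays (0.00349). The probe set 263241_at was lowest in the double mutant, at 5.92 and 6.24 against 7.67 and 7.65 in Col-0, with 7.09 and 7.14 in ddm1-2 and 7.15 and 7.09 in rdr6-15. As with PPDK, both single mutants lay between. It passed against Col-0 (lower by 1.58, limma adjusted p = 0.0229) and not against ddm1-2 or rdr6-15 (limma adjusted p = 0.355 and 0.19).

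The deepest fall of any probe set belonged to 248918_at, which also has no listed gene. It read 10.12 and 9.80 in Col-0 and 3.90 and 5.18 in the double mutant, a fall of 5.42 (limma adjusted p = 0.0305). It was as low in ddm1-2, at 4.12 and 3.79, and in rdr6-15, at 3.06 and 4.88.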
